A study of Rattus norvegicus with 21 samples.

Results

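Neurotransmitter receptor genes, those for the receptors that bind glutamate, GABA, glycine, acetylcholine, serotonin, dopamine and adrenaline, were followed across RNA sequencing libraries of mesenchymal stem cells from rat bone marrow, which are stromal cells able to give rise to bone, fat and cartilage. The members were taken by symbol, and 87 of the 9998 genes in the table matched. The 18 SFSN libraries carried the treatment label SFSN and fell into 6 groups of 3, named by the submitters for a cell fate: SFSN-EC for endothelial cells, SFSN-FB for fibroblasts, SFSN-Neu for neuron-like cells, SFSN-Adipo for adipocytes, SFSN-Ot for osteoblasts and SFSN-TC for tendon cells. The 3 Control libraries carried no treatment name. All 7 groups were wild type, and the labels gave neither age nor time, nor whether replicates were separate cultures or animals, so p-values measure the spread between these libraries. They did not state whether SFSN and Control libraries were processed together. The series title names self-feedback synaptic networks, so the questions were which receptor genes these cells transcribed at all and which of them differed between the groups. Genes after Map2k1 in the alphabet were not analysed here.

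Ionotropic receptors are channels built from several subunits that open when the transmitter binds, and metabotropic receptors act through G proteins on cyclic AMP, inositol phosphates or ion channels. Many channels need a set of subunits before they reach the cell surface, so the transcript of a single subunit does not make a receptor. In the marrow, sympathetic nerves release noradrenaline, and adrenergic receptors of stromal cells are known to take part in the control of bone and of the stem cell niche.

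Most of the receptor genes had few or no reads. No count was found in any of the 21 libraries for 6 genes, namely Chrm1, Chrna10, Chrnd, Drd2, Gabra6 and Htr3b, which allows a level of up to 0.0166 CPM (3 counts of the total over all libraries, counting error only). CPM is the count scaled by the library total over the genes at hand. A further 35 genes had between 1 and 21 counts over all libraries together, and 29 of the 87 had a count in every library. At a mean of 1 TPM or more in at least 1 group, 14 receptor genes (16.1%) were expressed, against 61.7% of all genes in the table. TPM is a transcript level per length scaled to the same total in each library, so it can be compared between genes. Together the receptor genes took 0.0328% to 0.0501% of the counts of a library, and their summed level was 61.8 to 115 TPM in the SFSN libraries and 68.8 to 76.2 TPM in Control.

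The 14 genes at or above 1 TPM were led by Gabbr1, the ligand-binding subunit of the GABA-B receptor. Its level averaged 32.0 ± 4.0 TPM in SFSN-TC and 21.5 ± 3.52 TPM in SFSN-Neu (SD, n = 3 each), its highest and lowest groups in TPM. Control had 28.7 ± 1.49 TPM. In CPM after the TMM scaling used for the tests below, Control was the highest group instead, with 170 CPM against 161 CPM in SFSN-TC. Gria3, an AMPA receptor subunit, came next with 24.6 ± 6.01 TPM in SFSN-Ot against 13.7 TPM in Control. Htr2a, a serotonin receptor that couples to phospholipase C, reached 12.1 ± 3.57 TPM in SFSN-Ot against 3.82 TPM in Control. The adrenergic receptors Adra2a, Adra1d and Adrb3 followed with highest group means of 7.91, 6.98 and 4.04 TPM. Among the rest, Grin2d, Grin3b, Glrb, Gabra2, Grin3a, Glra1 and Htr2b peaked between 1.08 and 2.98 TPM. No nicotinic, dopamine, kainate, muscarinic or metabotropic glutamate receptor gene reached 1 TPM in any group.

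**Figure D1:**
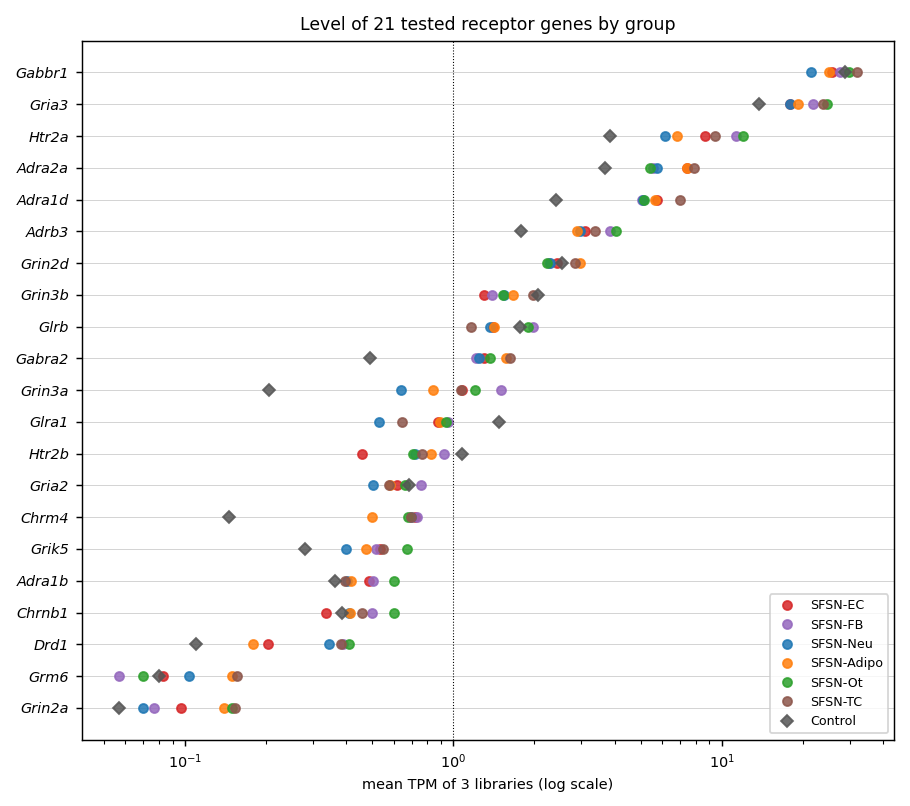
Mean level in TPM (log axis) of 21 of the 22 receptor genes that could be tested, 1 row per gene with the highest at the top, circles for the 6 SFSN groups and diamonds for Control, each the mean of 3 libraries. Gabbr1 leads with up to 32.0 TPM, and the dotted line marks 1 TPM. For Adra1d, Adra2a, Chrm4, Gabra2 and Grin3a the Control diamond lies left of all circles. The same holds for Adrb3, Drd1, Grik5, Grin2a and Htr2a, and for Adra1b and Gria3, which were not called.

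Some subunits that are known to be needed for a working receptor were near zero where a partner was present. Gabbr2, the partner that brings Gabbr1 to the cell surface, had 1 to 6 counts per SFSN library and 1 to 4 per Control library, with group means of at most 0.0833 TPM. Grin1, the obligatory subunit of NMDA receptors, had 4 to 16 counts per SFSN library and 2 to 4 per Control library, and its highest group mean was 0.263 TPM against 2.98 TPM for Grin2d. The beta subunits of the GABA-A channel were lower still, with 42 counts for Gabrb1 and 2 for Gabrb2 over all 21 libraries, whereas the alpha subunit Gabra2 peaked at 1.62 TPM. Of the muscle-type nicotinic receptor, Chrna1 had 49 counts, Chrne 90 and Chrng 1 over all libraries, and Chrnd none.

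Promoter sequences are shown for 4 genes that were higher than Control in all 6 SFSN groups, to set the letters upstream of genes that moved together side by side. They run from 250 bases before to 50 bases after the transcript start, 5′ to 3′ on the strand of the gene, and come from RefSeq (assembly GRCr8, which is not the Rnor_6.0 build of the count table). Capitals mark GC boxes, GGGCGG or its reverse complement CCGCCC.
Adra1d promoter (chr3:139262282-139262581, minus strand): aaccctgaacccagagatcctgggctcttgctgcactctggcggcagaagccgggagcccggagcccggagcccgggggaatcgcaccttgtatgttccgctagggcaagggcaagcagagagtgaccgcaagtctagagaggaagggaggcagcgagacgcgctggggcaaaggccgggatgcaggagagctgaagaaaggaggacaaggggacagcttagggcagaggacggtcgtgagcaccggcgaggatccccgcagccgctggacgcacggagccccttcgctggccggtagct
Adra2a promoter (chr1:263066530-263066829, plus strand): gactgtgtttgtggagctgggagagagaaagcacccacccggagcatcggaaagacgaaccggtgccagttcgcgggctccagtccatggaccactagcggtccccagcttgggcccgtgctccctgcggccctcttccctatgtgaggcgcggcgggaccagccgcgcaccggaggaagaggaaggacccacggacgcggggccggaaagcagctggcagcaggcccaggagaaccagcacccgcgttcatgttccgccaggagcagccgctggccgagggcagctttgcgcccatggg
Chrm4 promoter (chr3:98348830-98349129, plus strand): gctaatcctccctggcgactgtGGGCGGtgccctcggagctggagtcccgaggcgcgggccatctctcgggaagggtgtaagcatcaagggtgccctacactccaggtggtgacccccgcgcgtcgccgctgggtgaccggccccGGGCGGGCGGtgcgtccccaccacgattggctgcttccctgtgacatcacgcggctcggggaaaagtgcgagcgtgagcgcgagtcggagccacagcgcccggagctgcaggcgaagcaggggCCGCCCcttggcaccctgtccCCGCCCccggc
Grin3a promoter (chr5:69001509-69001808, minus strand): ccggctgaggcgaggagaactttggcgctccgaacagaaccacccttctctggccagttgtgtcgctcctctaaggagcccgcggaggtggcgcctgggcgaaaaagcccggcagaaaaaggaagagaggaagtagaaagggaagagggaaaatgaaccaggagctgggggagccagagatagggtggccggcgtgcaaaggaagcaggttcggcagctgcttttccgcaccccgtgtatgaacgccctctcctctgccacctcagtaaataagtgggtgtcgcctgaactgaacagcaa

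The Chrm4 window held 5 GC boxes, among them an overlapping pair, and the other 3 windows none. All 4 windows held more CpG than the median of 7 over all 33469 promoters, with 22 in Adra1d, 25 in Adra2a, 32 in Chrm4 and 17 in Grin3a. Of all promoters, 79%, 83.4%, 91.6% and 71% had fewer CpG than these windows, in the same order. The cyclic AMP response half-site TGACG and the AP-1 motif TGANTCA, searched on both strands, were in none of the 4. Over the 63 receptor genes with a promoter in the table, 12 held the half-site, 29 a GC box and none the AP-1 motif, beside 21.2%, 33.1% and 7.33% of all promoters. These matches describe letters only.

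Differences in expression were tested on counts. Of the 87 receptor genes 22 passed the filter on low counts and were tested together with the other genes, 6659 in all. The other 65 had at most 16 counts in any library. Genes are called at an adjusted p under 0.05 (edgeR quasi-likelihood test, Benjamini-Hochberg over all genes tested), and fold changes are on the log2 scale, SFSN group over Control. Each SFSN group was compared with the same 3 Control libraries, so the 6 comparisons are not independent of each other. Chrm4, Drd1, Grin2a and Grm6 had under 10 counts in every Control library, and Adra1b, Chrnb1, Gabra2, Grik5 and Grin3a had 10 counts in only 1 or 2 of them. These 9 genes passed the filter with the help of the SFSN libraries, so counts over the tested genes lean towards higher calls and are given as a description.

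Over the 7 groups 13 of the 22 tested receptor genes differed, beside 53.2% of all genes tested. In SFSN-EC 8 receptor genes were higher and 4 lower than in Control, where 17.7% of all genes were higher and 15.6% lower (33.3% called). In SFSN-FB 9 were higher and 2 lower, beside 21.5% and 21.2% of all genes (42.7% called). SFSN-Neu had 7 higher and 4 lower, beside 20.1% and 17.9% (38.1% called). SFSN-Adipo had 5 higher and 3 lower, beside 19.7% and 16.8% (36.5% called). SFSN-Ot had 9 higher and 3 lower, beside 20.2% and 19.3% (39.5% called). SFSN-TC had 10 higher and 2 lower, beside 19.3% and 18.8% (38.1% called). The SFSN-Neu count of 11 became 7 without Control 1, and the SFSN-Adipo count of 8 became 13 without SFSN-EC 1, a library that enters through the shared spread and scaling. The share of all genes called in those refits is not given, so nothing about the receptor genes is read from these changes.

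Called in all 6 SFSN groups were 5 genes that were higher, Adra1d, Adra2a, Chrm4, Gabra2 and Grin3a, and 1 that was lower, Glra1. Of all genes tested 8.5% were higher and 8.97% lower in all 6 groups, 17.5% in either direction. Since Chrm4, Gabra2 and Grin3a needed SFSN libraries to pass the filter, nothing is read from the count of 5 beside that share. A further 5 genes were higher in 1 to 5 groups (Adrb3, Htr2a, Drd1, Grik5 and Grin2a) and 6 were lower in 1 to 5 groups, among them Grin3b, Gabbr1, Gria2, Grin2d and Htr2b. None was called in both directions. Adra1b, Chrnb1, Glrb, Gria3 and Grm6 were called in no comparison with Control. In bulk RNA, fewer cells of a type and less RNA per cell cannot be told apart.

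**Figure D2:**
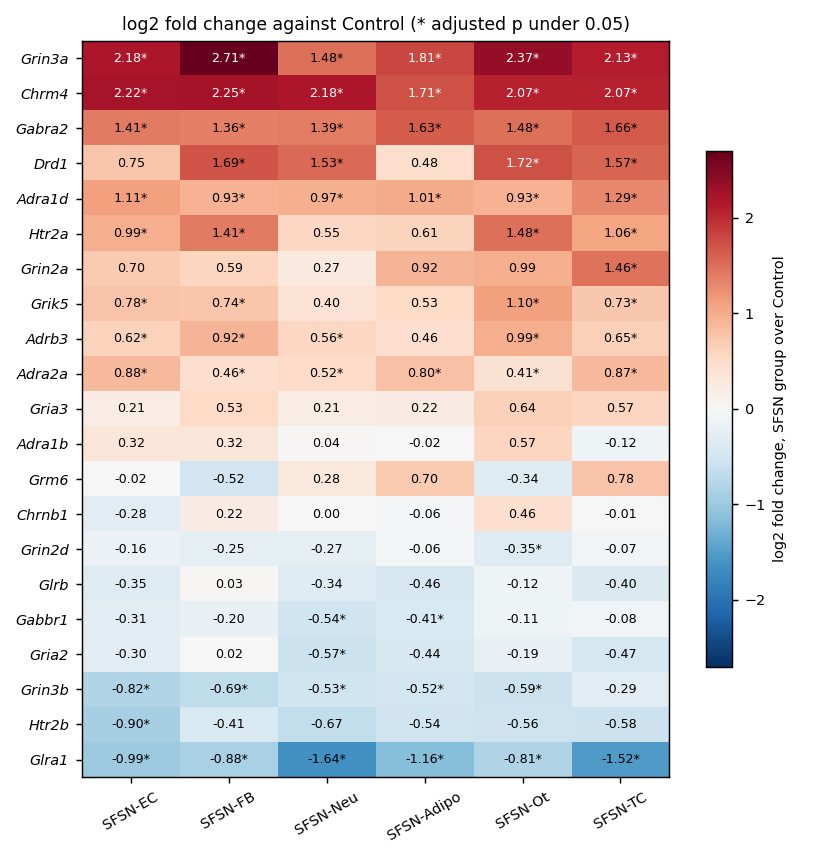
Log2 fold change of each SFSN group (columns) over Control for 21 of the 22 tested receptor genes (rows, ordered by their mean), red for higher and blue for lower, with a star at an adjusted p under 0.05. Grin3a and Chrm4 at the top reach 2.71 and 2.25 in SFSN-FB, and Glra1 at the bottom reaches -1.64 in SFSN-Neu.

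Among the adrenergic receptors, the alpha receptors Adra1d and Adra2a were higher in every SFSN group, and Adrb3 was higher in 5 groups. The 8 adrenergic genes summed to 17.1 to 20.4 TPM in the SFSN groups and 11.1 TPM in Control. Adra1d encodes a receptor that couples to phospholipase C and calcium. Adra1d had 190, 159 and 181 counts in SFSN-EC, 172, 133 and 138 in SFSN-FB, 137, 173 and 150 in SFSN-Neu, 185, 144 and 167 in SFSN-Adipo, 143, 144 and 159 in SFSN-Ot, 202, 202 and 197 in SFSN-TC, against 75, 65 and 78 in Control. All 18 SFSN libraries lay above all 3 Control libraries, and the log2 fold change was 0.93 to 1.29 (SE 0.12 each), with the largest adjusted p at 8.32e-06 (edgeR). Adra2a encodes a receptor that lowers cyclic AMP through an inhibitory G protein. Adra2a had 231, 202 and 215 counts in SFSN-EC, 177, 144 and 137 in SFSN-FB, 175, 166 and 144 in SFSN-Neu, 211, 203 and 202 in SFSN-Adipo, 149, 135 and 161 in SFSN-Ot, 198, 230 and 215 in SFSN-TC, against 108, 107 and 98 in Control. Here too no SFSN library reached down to Control, and the log2 fold change ran between 0.41 in SFSN-Ot and 0.88 in SFSN-EC (SE 0.10 each). Both genes kept their calls in all 6 groups when any 1 library was left out.

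Adrb3 encodes the beta receptor best known for lipolysis in fat cells. Adrb3 had 87, 66 and 56 counts in SFSN-EC, 75, 87 and 81 in SFSN-FB, 71, 65 and 57 in SFSN-Neu, 57, 57 and 73 in SFSN-Adipo, 97, 89 and 71 in SFSN-Ot, 73, 71 and 71 in SFSN-TC, against 32, 47 and 42 in Control. The SFSN libraries all exceeded the Control libraries, and the log2 fold change was 0.92 ± 0.18 in SFSN-FB and 0.99 ± 0.18 in SFSN-Ot (SE, edgeR adjusted p 0.000508 and 0.000284). It was 0.65 in SFSN-TC, 0.62 in SFSN-EC and 0.56 in SFSN-Neu, and 0.46 in SFSN-Adipo, the group labelled adipocytes, where it was not called (edgeR adjusted p 0.0632). The SFSN-EC call was lost without SFSN-EC 1 (edgeR adjusted p 0.0802) or Control 1 (0.0755). The SFSN-Neu call was lost without Control 1 (0.0971), SFSN-Neu 1 (0.0799) or SFSN-Neu 2 (0.0512). Both calls were lost with only the 6 libraries compared (0.1 and 0.0537). Adra1b had 7 to 18 counts per SFSN library and 7 to 10 per Control library and was not called. Adra1a and Adrb1 had 7 and 6 counts over all 21 libraries.

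**Figure D3:**
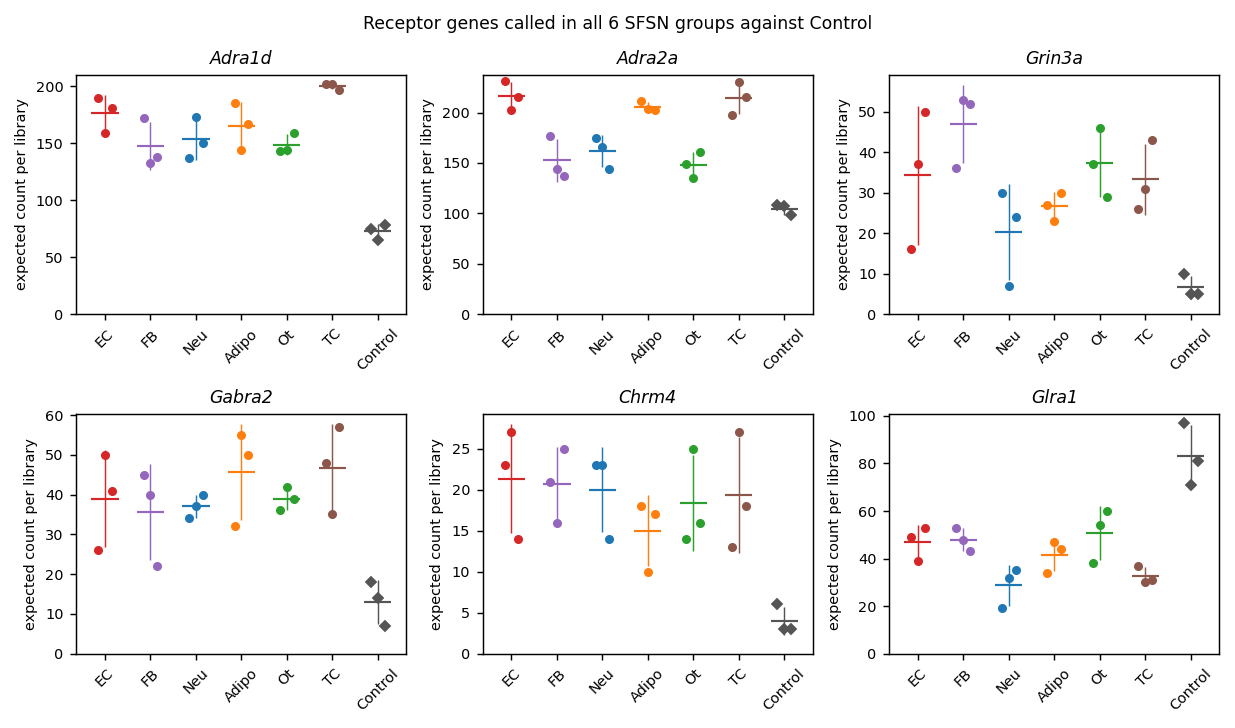
Expected count per library of the 6 receptor genes called in all 6 SFSN groups, 1 panel per gene, points for the libraries, horizontal bars for the mean of 3 and vertical bars for 1 SD, SFSN groups at the left and Control at the right. Adra1d lies between 133 and 202 in the SFSN libraries and between 65 and 78 in Control, and Glra1 is the gene whose Control libraries, at 71 to 97, lie above all others.

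Of the acetylcholine receptors, Chrm4, a muscarinic receptor that couples to inhibitory G proteins, was higher in all 6 SFSN groups at a low level. Chrm4 had 23, 27 and 14 counts in SFSN-EC, 21, 16 and 25 in SFSN-FB, 23, 23 and 14 in SFSN-Neu, 18, 10 and 17 in SFSN-Adipo, 14, 25 and 16 in SFSN-Ot, 13, 27 and 18 in SFSN-TC, against 6, 3 and 3 in Control. The counts of the groups did not overlap with Control. Fold changes on the log2 scale ran between 1.71 ± 0.45 in SFSN-Adipo (SE, edgeR adjusted p 0.00569) and 2.25 ± 0.43 in SFSN-FB (0.000348), and every call held when any 1 library was left out. Chrm4 overlaps Mdk in the RefSeq annotation, and Mdk was not analysed here. Chrnb1, the beta subunit of the muscle-type nicotinic receptor, had 6 to 14 counts per SFSN library and 6 to 11 per Control library and was not called.

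Below the filter were Chrm2, another inhibitory muscarinic receptor, and Chrna7, the subunit of a calcium-permeable nicotinic receptor. Chrm2 had 3 to 12 counts per SFSN library and 0 to 3 per Control library, and per unit of depth the summed counts were 4.74 times those of Control (95% interval 1.98 to 14.8, exact binomial, counting error only). Chrna7 had 1 to 11 counts per SFSN library and 2 counts in all of Control, a ratio of 9.35 (2.53 to 78.2). With no filter on low counts, each was called higher in 5 SFSN groups (edgeR), Chrm2 in all but SFSN-Neu and Chrna7 in all but SFSN-Adipo. In the same fit Grin1 and Chrne were called higher in 2 groups each and Chrnb4 and Gabrr2 in 1, and Adra2b was called lower in 3 groups, Grm4 in 2, and Htr6 and Gabrp in 1. These were the only genes called of the 59 below the filter that had a count. No share of all genes is set beside them, so nothing is read from their number. Ratios were worked out only for genes called in this fit, so they are not separate support. Adra2b had 22 counts in the 18 SFSN libraries together and 19 counts in the 3 Control libraries, a ratio per depth of 0.201 (0.104 to 0.392).

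The serotonin receptor Htr2a was higher in 4 SFSN groups and Htr2b, its close relative with the same coupling, was lower in 1. Htr2a had 55, 156 and 152 counts in SFSN-EC, 135, 150 and 177 in SFSN-FB, 94, 65 and 99 in SFSN-Neu, 72, 103 and 105 in SFSN-Adipo, 183, 188 and 116 in SFSN-Ot, 128, 129 and 126 in SFSN-TC, against 57, 52 and 54 in Control. SFSN-EC 1, with 55 counts, lay within the Control range, while the other 17 SFSN libraries exceeded Control. The log2 fold change of Htr2a was 1.48 ± 0.30 in SFSN-Ot, 1.41 ± 0.30 in SFSN-FB, 1.06 ± 0.30 in SFSN-TC and 0.99 ± 0.30 in SFSN-EC (SE, edgeR adjusted p 0.000659, 0.000889, 0.00989 and 0.0178). It was 0.61 in SFSN-Adipo and 0.55 in SFSN-Neu, not called. The SFSN-EC call was lost without SFSN-EC 2 (edgeR adjusted p 0.092), SFSN-EC 3 (0.0832) or Control 2 (0.0525), and with only the 6 libraries compared (0.112).

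Htr2b was, with Grin3b and Glra1, one of 3 receptor genes above 1 TPM whose highest mean in TPM was in Control. Htr2b had 18, 12 and 18 counts in SFSN-EC, 18, 31 and 15 in SFSN-FB, 16, 15 and 23 in SFSN-Neu, 22, 14 and 26 in SFSN-Adipo, 24, 20 and 14 in SFSN-Ot, 13, 20 and 27 in SFSN-TC, against 28, 26 and 26 in Control. Its log2 fold change was negative in all 6 groups, between -0.90 and -0.41, and was called in SFSN-EC (-0.90 ± 0.32, SE, edgeR adjusted p 0.041). That call was lost without any 1 of SFSN-EC 2 (0.146), SFSN-EC 3 (0.0623), Control 1 (0.0962), Control 2 (0.0792), Control 3 (0.0802) or SFSN-TC 2 (0.051), and with DESeq2 (0.0511), no filter on low counts (0.0582) and the replicate block (0.0558). The gene overlaps Psmd1, which was not analysed here.

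Drd1, a dopamine receptor that raises cyclic AMP, was higher in 4 SFSN groups at a few counts per library. Drd1 had 7, 10 and 6 counts in SFSN-EC, 19, 15 and 8 in SFSN-FB, 11, 11 and 16 in SFSN-Neu, 8, 3 and 8 in SFSN-Adipo, 12, 18 and 13 in SFSN-Ot, 15, 13 and 13 in SFSN-TC, against 2, 7 and 3 in Control. SFSN-FB, SFSN-Neu, SFSN-Ot and SFSN-TC lay above Control, whereas SFSN-EC and SFSN-Adipo overlapped it. The log2 fold change was 1.72 ± 0.43 in SFSN-Ot, 1.69 ± 0.43 in SFSN-FB, 1.57 ± 0.44 in SFSN-TC and 1.53 ± 0.44 in SFSN-Neu (SE, edgeR adjusted p 0.0041, 0.00423, 0.00838 and 0.0106). Control 2 held 7 of the 12 Control counts, and without it these values were 2.37, 2.35, 2.24 and 2.20. The SFSN-Neu call was lost without Control 1 (edgeR adjusted p 0.0536).

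Of the genes for inhibitory channels, Gabra2 was higher and Glra1 lower in all 6 SFSN groups. Gabra2 encodes an alpha subunit of the GABA-A chloride channel. Gabra2 had 26, 50 and 41 counts in SFSN-EC, 45, 40 and 22 in SFSN-FB, 34, 37 and 40 in SFSN-Neu, 32, 55 and 50 in SFSN-Adipo, 36, 42 and 39 in SFSN-Ot, 48, 35 and 57 in SFSN-TC, against 18, 14 and 7 in Control. The lowest SFSN library, SFSN-FB 3 with 22 counts, lay above the highest Control library, Control 1 with 18 counts. On the log2 scale the change ran between 1.36 in SFSN-FB and 1.66 in SFSN-TC (SE 0.34 each), with the largest adjusted p at 0.00371 (edgeR). Glra1 encodes the glycine-binding alpha subunit of the spinal glycine receptor. Glra1 had 49, 39 and 53 counts in SFSN-EC, 53, 48 and 43 in SFSN-FB, 19, 32 and 35 in SFSN-Neu, 34, 47 and 44 in SFSN-Adipo, 38, 54 and 60 in SFSN-Ot, 37, 30 and 31 in SFSN-TC, against 97, 71 and 81 in Control. No SFSN library reached the Control range. Glra1 fell by 1.64 ± 0.22 on the log2 scale in SFSN-Neu, the group labelled neuron-like cells, and by 1.52 ± 0.21 in SFSN-TC (SE, edgeR adjusted p 8.77e-06 and 2.02e-05). In the other 4 groups the log2 fold change was between -1.16 and -0.81. The calls of both genes held when any 1 library was left out. With limma on log2(TPM + 0.1) Glra1 was not called in those 4 groups (limma adjusted p 0.0581 to 0.108). Glrb, the beta subunit that anchors glycine receptors to gephyrin, had 41 to 69 counts per SFSN library and 46 to 73 per Control library and was not called.

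Gabbr1, the receptor gene with the highest level, was lower in 2 groups. Gabbr1 had 1028, 1249 and 1392 counts in SFSN-EC, 978, 1395 and 1354 in SFSN-FB, 1054, 881 and 1067 in SFSN-Neu, 1019, 1155 and 1247 in SFSN-Adipo, 1420, 1502 and 1094 in SFSN-Ot, 1525, 1528 and 1259 in SFSN-TC, against 1356, 1302 and 1384 in Control. After scaling for depth SFSN-EC, SFSN-Neu and SFSN-Adipo lay below Control, and the other 3 groups overlapped it. Gabbr1 fell by 0.54 ± 0.15 on the log2 scale in SFSN-Neu and by 0.41 ± 0.15 in SFSN-Adipo (SE, edgeR adjusted p 0.00816 and 0.0388). The SFSN-Adipo call was lost without any 1 of Control 1 (0.0793), Control 2 (0.067), Control 3 (0.102), SFSN-Adipo 1 (0.148) or SFSN-Adipo 2 (0.0772). Neither group was called with limma on log2(TPM + 0.1) (limma adjusted p 0.117 in SFSN-Neu and 0.442 in SFSN-Adipo).

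Of the glutamate-gated channels, the related NMDA subunits Grin3a and Grin3b, which bind glycine, moved in opposite directions. Grin3a was higher in all 6 SFSN groups. Grin3a had 16, 37 and 50 counts in SFSN-EC, 36, 53 and 52 in SFSN-FB, 30, 7 and 24 in SFSN-Neu, 27, 23 and 30 in SFSN-Adipo, 37, 46 and 29 in SFSN-Ot, 26, 31 and 43 in SFSN-TC, against 10, 5 and 5 in Control. SFSN-Neu 2, with 7 counts, lay within the Control range, and the other 17 SFSN libraries lay above it. The log2 fold change was 2.71 ± 0.48 in SFSN-FB (SE, edgeR adjusted p 0.000168), the highest of any tested receptor gene, and 1.81 to 2.37 in SFSN-EC, SFSN-Adipo, SFSN-Ot and SFSN-TC. In SFSN-Neu it was 1.48 ± 0.52 (edgeR adjusted p 0.0313), and that call was lost without Control 2 (0.0942), Control 3 (0.0952), SFSN-Neu 1 (0.151) or SFSN-Neu 3 (0.0879), and with limma on log2(TPM + 0.1) (0.0556). Ppp3r2, which overlaps Grin3a in the annotation, was not analysed here.

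Grin3b was lower in 5 SFSN groups. Grin3b had 36, 43 and 49 counts in SFSN-EC, 46, 47 and 39 in SFSN-FB, 55, 50 and 45 in SFSN-Neu, 47, 54 and 57 in SFSN-Adipo, 39, 55 and 49 in SFSN-Ot, 71, 62 and 52 in SFSN-TC, against 72, 68 and 61 in Control. SFSN-TC 1 and SFSN-TC 2 alone among the SFSN libraries reached the Control range. Grin3b fell by 0.82 ± 0.16 on the log2 scale in SFSN-EC and by 0.69 ± 0.16 in SFSN-FB (SE, edgeR adjusted p 0.000603 and 0.00174), and its log2 fold change was -0.59, -0.53 and -0.52 in SFSN-Ot, SFSN-Neu and SFSN-Adipo. In SFSN-TC it was -0.29 and not called (edgeR adjusted p 0.149). The SFSN-Neu call was lost without Control 1 (0.0592) or SFSN-Neu 3 (0.0571), and the SFSN-Adipo call without Control 1 (0.0574) or SFSN-Adipo 1 (0.0696). With limma on log2(TPM + 0.1) Grin3b was not called in SFSN-Ot, SFSN-Neu and SFSN-Adipo (limma adjusted p 0.0831, 0.109 and 0.22). Tmem259, which overlaps Grin3b, was not analysed here.

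Of the other NMDA subunits Grin2d and Grin2a were tested, and each was called in 1 group. Grin2d is a subunit known from the embryonic brain. Grin2d had 184, 218 and 217 counts in SFSN-EC, 167, 192 and 190 in SFSN-FB, 203, 166 and 182 in SFSN-Neu, 212, 217 and 236 in SFSN-Adipo, 213, 152 and 151 in SFSN-Ot, 214, 229 and 217 in SFSN-TC, against 185, 197 and 234 in Control. It was lower in SFSN-Ot alone (log2 fold change -0.35 ± 0.13, SE, edgeR adjusted p 0.0356), where SFSN-Ot 1 overlapped Control. The call was lost without Control 2 (0.0513), Control 3 (0.18), SFSN-Ot 2 (0.146) or SFSN-Ot 3 (0.146), and also with limma on log2(TPM + 0.1) (0.432), only the 6 libraries compared (0.122) and the replicate block (0.0519). Grwd1, which overlaps Grin2d, had 29.9 to 41.9 CPM in the SFSN libraries and 32.7 to 35.0 CPM in Control. Grin2a, a subunit of the adult brain, was called higher in SFSN-TC. Grin2a had 4, 10 and 10 counts in SFSN-EC, 4, 6 and 11 in SFSN-FB, 6, 6 and 5 in SFSN-Neu, 9, 10 and 9 in SFSN-Adipo, 14, 9 and 5 in SFSN-Ot, 11, 11 and 19 in SFSN-TC, against 1, 5 and 7 in Control. All 3 SFSN-TC libraries lay above Control. Its log2 fold change there was 1.46 ± 0.51 (SE, edgeR adjusted p 0.0299), and the call was lost without Control 1 (0.119), Control 2 (0.0575) or SFSN-TC 3 (0.131). With limma on log2(TPM + 0.1) the value was 0.71 (limma adjusted p 0.0442), on a scale that understates the change of low genes.

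Gria3, the AMPA subunit with the second highest level of the receptor genes, was not called in any comparison. Gria3 had 670, 1094 and 1091 counts in SFSN-EC, 750, 1307 and 1317 in SFSN-FB, 934, 739 and 1074 in SFSN-Neu, 696, 1069 and 1117 in SFSN-Adipo, 1403, 1438 and 814 in SFSN-Ot, 1262, 1345 and 1081 in SFSN-TC, against 839, 654 and 707 in Control. Positive log2 fold changes were found in all 6 groups, 0.21 to 0.64 (SE 0.26 each), and 5 of the 6 groups overlapped Control, while SFSN-TC did not. Gria2, the subunit that limits calcium entry through AMPA receptors, was lower in SFSN-Neu. Gria2 had 34, 51 and 52 counts in SFSN-EC, 48, 55 and 59 in SFSN-FB, 45, 26 and 38 in SFSN-Neu, 40, 35 and 49 in SFSN-Adipo, 48, 50 and 43 in SFSN-Ot, 37, 47 and 38 in SFSN-TC, against 51, 44 and 55 in Control. All 3 SFSN-Neu libraries lay below Control after scaling for depth. Its log2 fold change there was -0.57 ± 0.20 (SE, edgeR adjusted p 0.0352), and the call was lost without Control 1 (0.0901), Control 3 (0.135), SFSN-Neu 2 (0.165) or SFSN-Neu 3 (0.0629). It was also lost with limma on log2(TPM + 0.1) (0.194), DESeq2 (0.0507), no filter on low counts (0.0559) and only the 6 libraries compared (0.0909). Gria1 and Gria4 had 51 and 6 counts over all libraries.

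Grik5, a kainate subunit that forms channels only with partners such as Grik1 to Grik3, was higher in 4 groups. Grik5 had 20, 18 and 26 counts in SFSN-EC, 19, 22 and 18 in SFSN-FB, 18, 15 and 14 in SFSN-Neu, 18, 19 and 17 in SFSN-Adipo, 32, 25 and 19 in SFSN-Ot, 17, 20 and 25 in SFSN-TC, against 7, 16 and 10 in Control. After TMM scaling SFSN-FB and SFSN-Ot lay above Control, and the other 4 groups overlapped it. Its log2 fold change was 1.10 ± 0.27 in SFSN-Ot (SE, edgeR adjusted p 0.00357), a call that held when any 1 library was left out. In SFSN-EC, SFSN-FB and SFSN-TC it was 0.78, 0.74 and 0.73 (edgeR adjusted p 0.0374, 0.0392 and 0.0465). Without Control 1 these 3 adjusted p were 0.204, 0.216 and 0.228, and without Control 3 they were 0.107, 0.104 and 0.125. The SFSN-EC call was also lost without SFSN-EC 3 (0.162), the SFSN-FB call without any 1 SFSN-FB library (0.0545 to 0.118), and the SFSN-TC call without SFSN-TC 2 (0.08), SFSN-TC 3 (0.192), SFSN-Ot 2 (0.0551) or any 1 library of SFSN-FB, SFSN-Neu or SFSN-Adipo (0.0507 to 0.0551). All 3 calls were lost with DESeq2 (DESeq2 adjusted p 0.101, 0.105 and 0.119), with no filter on low counts (0.0566, 0.0601 and 0.0698) and with only the 6 libraries compared (0.148, 0.0981 and 0.0928), and the SFSN-FB and SFSN-TC calls with the replicate block (0.0522 and 0.0599). Grik1, Grik2 and Grik3 had 2, 10 and 4 counts over all 21 libraries. Grm6, the only metabotropic glutamate receptor gene tested, had 2 to 14 counts per SFSN library and 4 to 9 per Control library and was not called.

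The 6 SFSN groups differed from one another in 3 receptor genes, among them Adra2a and Glra1, beside 34.1% of all genes tested (edgeR F test over the 6 groups, adjusted p 0.00102 and 0.0252). This count was 5 without SFSN-EC 1 or SFSN-FB 1, and 1 without SFSN-TC 3, with the share of all genes in those refits not given. Adra2a averaged 24.2 ± 1.74 CPM in SFSN-EC, with 23.9 ± 1.94 CPM for SFSN-TC, 23.0 ± 0.353 in SFSN-Adipo, 18.9 ± 1.86 in SFSN-Neu, 18.1 ± 2.22 in SFSN-FB and 17.4 ± 1.31 in SFSN-Ot (SD, n = 3 each). The widest gap in this order lay between SFSN-Adipo and SFSN-Neu, and the other neighbours differed by less than the larger of their SDs. These CPM are after TMM scaling.

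Set against the other 5 SFSN groups taken as a mean, SFSN-TC was called in 3 receptor genes (15.6% of all genes), SFSN-EC, SFSN-FB, SFSN-Neu and SFSN-Ot in 1 each (6.01%, 24.2%, 12.2% and 15% of all genes) and SFSN-Adipo in none (10.5%). At an adjusted p under 0.05 (edgeR), Adra2a was higher in SFSN-EC and SFSN-TC, with log2 fold changes of 0.27 and 0.25, and lower in SFSN-FB and SFSN-Ot, with -0.24 and -0.30. Adra1d was higher in SFSN-TC, with 22.4 ± 0.37 CPM against 18.2 ± 1.88 CPM (0.30, edgeR adjusted p 0.025), and this call was lost without any 1 SFSN-TC library (0.0763 to 0.109). Glra1 was lower in SFSN-Neu (-0.57, edgeR adjusted p 0.0492), a call that held only without SFSN-EC 1, SFSN-EC 2, SFSN-Neu 3, SFSN-Adipo 1 or SFSN-Ot 1 and was lost without any 1 of the other 16 libraries (0.056 to 0.284). Of Adra2a, the SFSN-FB call was lost without SFSN-FB 2 (0.166) or 3 (0.23), the SFSN-Ot call without SFSN-Ot 1 (0.0565) or 2 (0.121), the SFSN-TC call without SFSN-TC 2 (0.214) or 3 (0.1), and the SFSN-EC call without any 1 of SFSN-EC 1 to 3, Control 1 and 2, SFSN-FB 2, SFSN-Adipo 2 and 3, SFSN-Ot 1 and 2 and SFSN-TC 1 and 3 (0.0503 to 0.183).

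The genes around the receptors were described by 4 lists. Of 13 tested genes for making and breaking down transmitters, 4 were lower in all 6 SFSN groups and none was higher in all 6, beside 8.97% and 8.5% of all genes tested. Among them were the glutaminase Gls2 (log2 fold change -1.40 to -1.0), which releases glutamate, the aldehyde dehydrogenase Aldh9a1 (-0.64 to -0.40) and the glutamate dehydrogenase Glud1 (-0.39 to -0.26). In single groups 0 to 4 of the 13 were higher and 4 to 5 lower (17.7% to 21.5% and 15.6% to 21.2% of all genes), with medians between -0.17 and 0.06. Of 32 tested genes for receptor scaffolds, auxiliary subunits and trafficking, 2 were higher and 4 lower in all 6 groups, beside 8.5% and 8.97% of all genes. Lrp4, the agrin receptor of the neuromuscular junction, was higher by 1.51 to 1.83, and Kctd12, an auxiliary subunit of GABA-B receptors, by 1.07 to 1.33. Arc, which takes part in AMPA receptor uptake, was lower (-1.90 to -1.10), and so was the scaffold gene Dlgap1 (-1.06 to -0.63). In single groups 5 to 8 of the 32 were higher and 5 to 10 lower, beside the same 17.7% to 21.5% and 15.6% to 21.2% of all genes, with medians between -0.12 and -0.06. The median over all genes tested was between 0.00 and 0.02 in each comparison.

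Of 34 tested genes for G proteins and second messengers, 7 were higher and 3 lower in all 6 groups, beside 8.5% and 8.97% of all genes. In single groups 8 to 12 of the 34 were higher and 3 to 8 lower, beside 17.7% to 21.5% and 15.6% to 21.2% of all genes, with medians between -0.06 and 0.09. Akap12, a scaffold for protein kinase A, was lower (log2 fold change -1.58 to -0.99). The inositol trisphosphate receptor Itpr2 was higher (0.42 to 1.04), and Itpr3 (-0.78 to -0.40) and the adenylyl cyclase Adcy8 (-0.99 to -0.41) were lower. Of 9 tested receptors for other modulators, 1 was higher and 3 lower in all 6 groups, beside 8.5% and 8.97% of all genes. The bradykinin receptors Bdkrb1 (-1.93 to -1.36) and Bdkrb2 (-1.50 to -0.82) and the adenosine receptor Adora2b (-1.75 to -0.96) were lower, and the endothelin receptor Ednra (0.57 to 1.25) was higher. In single groups 1 to 3 of the 9 were higher and 3 to 4 lower, beside 17.7% to 21.5% and 15.6% to 21.2% of all genes, with medians between -0.31 and 0.39.

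Markers of several cell types moved with the SFSN label, beside all the receptor calls above, and their part in those calls was not tested. The 15 neuron markers in the table summed to 233 to 335 CPM in the SFSN libraries and 769 to 830 CPM in Control. Most of that was Map1b, and the members did not move together. Map1b and Map2 were lower in all 6 groups, Ina in 5 and Dcx in 3, while Kif5a was higher in 3, Bsn in 2 and L1cam in 1. Celf4, Cplx2 and Eno2 were called in no group. Calb1, Calb2, Cplx1, Elavl4 and Gap43 were under 1 CPM in every library. The 10 macrophage and leukocyte markers summed to 1000 to 1835 CPM in the SFSN libraries and 913 to 979 CPM in Control, and of these Adgre1 and Itgam were higher in all 6 groups, while Aif1 and Cd68 were lower in 2 groups each and Csf1r was higher in 5 and lower in 1. The 7 smooth muscle markers summed to 17975 to 23032 CPM against 29463 to 31353 CPM in Control, most of it Acta2 and Cald1. Acta2, Cald1, Cnn1 and Lmod1 were lower in all 6 groups and Actg2 in 5, while Des was higher in all 6. The 7 positive markers of mesenchymal stem cells summed to 7064 to 9302 CPM against 12406 to 13152 CPM, most of it Itgb1. Itgb1, Cd44 and Cxcl12 were lower in all 6 groups and Alcam in 2, while Kitlg was higher in 5 and Eng in 4. The 13 glial markers summed to 95.4 to 174 CPM against 118 to 121 CPM, most of it Cnp and Egr2. Aqp4, Cdh19, Fabp7, Foxd3, Gfap, Gjc3, Mag and Mal were under 1 CPM in every library. The 7 skeletal muscle markers summed to 304 to 446 CPM against 534 to 544 CPM, with Cacna1s and Ckm under 1 CPM throughout. The 9 endothelial markers summed to 39.6 to 56.0 CPM against 90.6 to 96.3 CPM, with Cdh5, Ecscr, Emcn and Kdr under 1 CPM throughout. The 7 haematopoietic markers summed to 26.4 to 57.0 CPM against 15.1 to 22.9 CPM, with Cd79a, Hba-a1 and Hbb under 1 CPM in every library. Most of this sum was Itgam, which is also in the macrophage and leukocyte list, so the 2 sums are not separate. Cd34 and Kit, at no more than 4.18 and 2.11 CPM, were higher in 6 and 5 groups.

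Libraries of 1 group also differed from each other along gene length. In 5 SFSN groups 1 library was shifted towards short genes, with a Spearman correlation across 5007 genes between effective length and the deviation from the group mean of -0.69 for SFSN-EC 1, -0.65 for SFSN-FB 1, -0.65 for SFSN-Neu 2, -0.60 for SFSN-Ot 3 and -0.53 for SFSN-Adipo 1 (genes are not independent replicates). For 6 receptor genes, Gabbr1, Gria2, Gria3, Grin2d, Grin3a and Htr2a, the most short-shifted library of a group was the lowest for that gene in 6 of the 7 groups. Htr2a itself is not long, with 23.2% of tested genes shorter. Adra2a and Adra1d showed this in 1 group each. Within groups, the highest library of Htr2a exceeded the lowest by up to 2.81 times and that of Gria3 by up to 1.81 times, but that of Adra2a by at most 1.25 times. With the length trend taken out, an alternative chosen after seeing the data, no call of the first 6 genes against Control was lost, and Grik5 was no longer called in SFSN-TC (edgeR adjusted p 0.0736). The trend is taken out by each gene's own length. For Htr2a, which is not long, it could not take out the drop in those libraries, so nothing is read from its kept calls.

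**Figure D4:**
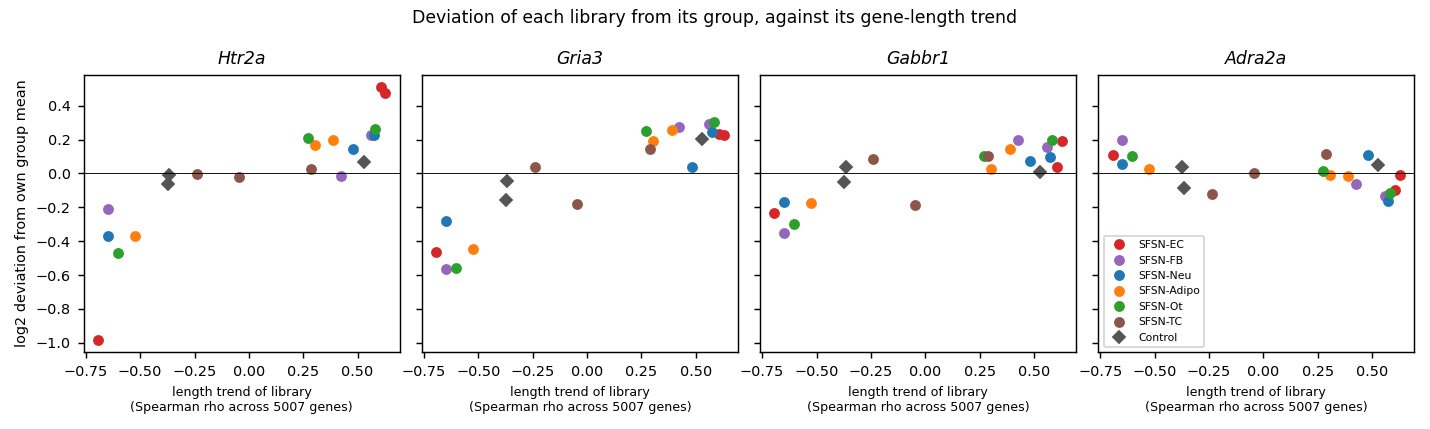
Deviation of each library from the mean of its group (log2, vertical) for Htr2a, Gria3, Gabbr1 and Adra2a against the length trend of that library (Spearman correlation of deviation with effective length over 5007 genes, horizontal), coloured by group with diamonds for Control. SFSN-EC 1 at -0.69 is the lowest point for Htr2a, and Adra2a stays near 0 throughout.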

How the data were processed

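Total RNA of 21 libraries was analysed from 1 gene table, which gave per library the RSEM expected count, the TPM, the FPKM and the authors' normalized count. Per the submitters' processing notes the authors used SOAPnuke 2.2.1, HISAT2 2.2.1 on Rnor_6.0, Bowtie2 2.4.5 and RSEM 1.3.1 with forward probability 0, that is, strand was used in counting, and DESeq2 1.34.0. The deposited expected counts (84.4% whole) were rounded and were the main measurement. The deposited TPM served for levels, and the counts divided by the TPM gave effective lengths. The 42 per-sample columns of the other measures and the 28 columns of authors' means were not used here. Depth was 8113600 to 8934239 counts per library over the genes at hand.

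Members were matched by symbol, and all 87 had a RefSeq gene ID. A few genes are counted but not reported here by name. Members and lists were chosen with earlier results of these data known. Genes were filtered with filterByExpr (at least 10 counts, 15 in all), scaled by TMM and fitted with 1 mean per group in edgeR 4.0.16 (R 4.3.3, quasi-likelihood, biological coefficient of variation 11.8%, with 14 residual degrees of freedom). SE is the log2 fold change over the square root of F. Named receptor genes are all those called in at least 1 test, and each related list gives up to 4 genes called in the most groups, at 2 CPM or more. Alternatives were RLE scaling, no filter, DESeq2 1.42.0, limma 3.58.1 on log2(TPM + 0.1), a replicate block, only the 6 libraries compared, each library left out, and, added after seeing the data, the length trend taken out and SFSN-EC 1 and SFSN-Neu 2 left out together. No pair of replicates agreed within sampling noise.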

Additional observations from a re-analysis of the deposited data

Results flagged for a closer look

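Adra2a, the alpha-2A adrenergic receptor, differed among the 6 SFSN groups (edgeR F test, adjusted p 0.00102). Set against the other 5 SFSN groups, it had a log2 fold change of 0.27 in SFSN-EC, of 0.25 in SFSN-TC, of -0.24 in SFSN-FB and of -0.30 in SFSN-Ot, each at an adjusted p under 0.05 in edgeR. Glra1, the glycine receptor alpha subunit, also differed among the 6 groups (edgeR adjusted p 0.0252) and was -0.57 in SFSN-Neu against the other 5. Adra1d was 0.30 in SFSN-TC against the other 5 but was not called over the 6 groups as a whole (edgeR adjusted p 0.0919). What drew attention in each case was a difference in level between SFSN groups, not a comparison with Control. Single outlying libraries were not looked for by a gap test, since groups held 3 libraries.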

How the results depend on the processing

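Of the 66 calls of receptor genes against Control 44 were kept under every alternative run, and of the 7 calls against the other 5 SFSN groups none was. No value changed direction where it was called. Leaving out each library in turn gave 12 to 15 receptor genes differing over the 7 groups (13 with all libraries), 1 to 5 among the 6 SFSN groups (3), and against Control 9 to 14 in SFSN-EC (12), 11 to 12 in SFSN-FB (11), 7 to 12 in SFSN-Neu (11), 7 to 13 in SFSN-Adipo (8), 12 to 15 in SFSN-Ot (12) and 10 to 13 in SFSN-TC (12). Against the other 5 SFSN groups the ranges were 0 to 1 in SFSN-EC, 0 to 3 in SFSN-FB, 0 to 4 in SFSN-Neu, 0 to 1 in SFSN-Adipo, 0 to 3 in SFSN-Ot and 1 to 5 in SFSN-TC, and 14 to 14 genes reached 1 TPM. The replicate numbers did not pair the libraries: over 63 same-numbered pairs the median correlation of deviations was 0.078 (-0.564 to 0.644), and 8 of 21 libraries correlated best with their own number. With the replicate block 11 genes differed over the 7 groups and 3 among the SFSN groups, counts against Control were 8 to 11, and the 1 call in SFSN-Neu against the other 5 became 0. With limma on log2(TPM + 0.1) the SFSN-Neu count against Control was 7, and SFSN-EC against the other 5 was 0. With no filter, SFSN-EC, SFSN-FB and SFSN-Neu against the other 5 had 0. DESeq2 gave 0 in SFSN-FB and SFSN-Neu, and RLE scaling 0 in SFSN-Neu. With the length trend taken out, 5 genes differed among the SFSN groups, and SFSN-FB and SFSN-TC against the other 5 had 3 and 1. Without SFSN-EC 1 and SFSN-Neu 2 these were 6 among the SFSN groups, 14 in SFSN-Adipo against Control, and against the other 5 there were 0 in SFSN-EC, 4 in SFSN-FB, 0 in SFSN-Neu, 1 in SFSN-Adipo and 3 in SFSN-Ot. At 2 TPM in place of 1, 9 genes were expressed. No share of all genes called is set beside the counts from these alternatives, so their changes are not read as a trait of the receptor genes. The causes were not tested. The 65 receptor genes below the filter had at most 16 counts in any library, which limits the precision of their values.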
